A study of Rattus norvegicus with 6 samples.

Results

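The miRNAs of the rat hypothalamic arcuate nucleus (ARC) tied to energy balance are described here in sham-operated rats and in rats with chronic constriction injury of the infraorbital nerve (CCI-ION). They were chosen by name, as every measured arm of the hairpins miR-103, miR-107, miR-33, miR-383, miR-384 and miR-488, which gave 10 of the 562 mature miRNAs measured. All 10 entered the comparison of 555 miRNAs, which required a mean of 1 normalized count, and 7 of them reached a mean of 10. Both groups were Sprague-Dawley rats aged 8 to 10 weeks, sampled on Day 14, with 3 small RNA libraries per group. In CCI-ION rats loose silk ligatures were tied around the left nerve, and in sham rats that nerve was exposed on 1 side and left untied. The study used male rats unless it states otherwise. Surgery was done under isoflurane anesthesia, and no transgene or test drug is stated for either group. The study gives more rats than libraries per group for these data, and how rats were assigned to libraries is not given in the sources used here. A library may therefore pool rats, and p-values measure the spread between libraries, which may be technical.

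The ARC holds neurons that make the precursor pro-opiomelanocortin (Pomc), the source of both the appetite-lowering melanocortins and the opioid peptide beta-endorphin, next to neurons that drive feeding. A miRNA pairs through its seed, bases 2 to 8, with messenger RNAs and lowers their translation or stability. Hairpins of miR-383, miR-384 and miR-488 have been reported to target Pomc, miR-103 and miR-107 to act on insulin signalling and in Pomc neurons, and miR-33 to restrain cholesterol export. Pomc mRNA and protein were not part of these measurements.

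The mature sequences below, from the RefSeq miRNA table of build GRCr8, are shown because counts of near-identical miRNAs and of seed relatives bear on the results. Capitals mark the seed, and the prefix rno- (rat) is left out elsewhere.
rno-miR-103-3p: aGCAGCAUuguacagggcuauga
rno-miR-107-3p: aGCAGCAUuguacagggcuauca
rno-miR-384-5p: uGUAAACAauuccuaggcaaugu
rno-miR-384-3p: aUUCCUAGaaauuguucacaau
rno-miR-488-3p: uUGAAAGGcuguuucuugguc
rno-miR-33-5p: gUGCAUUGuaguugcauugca
A sequence was matched for 8 of the 10 members, and rno-miR-383-5p and rno-miR-383-3p are named without one. miR-103-3p and miR-107-3p share the seed GCAGCAU and 22 of 23 bases, and differ by G22C, counted from the 5′ end of miR-103-3p. Reads that end before that base fit both. miR-384-5p has the seed of miR-30a-5p, miR-30c-5p and miR-30e-5p but matches them at no more than 12 positions from the 5′ end, and the other members shared their seed with no measured miRNA that had a sequence.

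The hairpins lie in unlike surroundings. In GRCr8, miR-107 is at chr1:241750418-241750504 on the minus strand within the span of Pank1, and the pair of miR-103 hairpins is at chr3:138963227-138963312 within Pank2 and at chr10:20748474-20748559 within Pank3, both on the plus strand. The Pank genes encode pantothenate kinases, which begin the synthesis of coenzyme A. miR-33 is at chr7:115593952-115594020 on the plus strand within Srebf2, a regulator of sterol synthesis, and miR-488 at chr13:73216541-73216619 on the plus strand within Astn1, a gene of neuronal migration. The span of Sgcz, a sarcoglycan gene, holds miR-383. miR-384 is at chrX:74490889-74490971 on the minus strand within a long non-coding RNA. No other miRNA gene of the RefSeq table lay within 10 kb of any of the 7 hairpins, and exon or intron positions were not analysed.

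Values are normalized counts, that is, reads over a library-specific size factor, and single-library values are given in the order of replicates 1, 2 and 3. Worked out from these values, the reads of the listed miRNAs came to 11115049 to 14313839 per sham library and 8628309 to 11297551 per CCI-ION library. Total library sizes are not known from them. The smallest listed value was worth 5 reads, so a value of 0 means fewer than that. CCI-ION replicate 2 had the fewest reads and the most miRNAs listed at 0, 48 of 562. No library repeated another, since replicates were further apart than read sampling allows. Lists of cell type markers differed between the groups. The summed level of 5 neuronal miRNAs was 1829530 to 2029010 in sham and 1348240 to 1743090 in CCI-ION libraries, with 1 of the 5 lower past the threshold. That of 6 vascular smooth muscle and fibroblast miRNAs was 41749 to 58068 against 88764 to 107506 (3 of 6 higher), that of 3 oligodendrocyte miRNAs 9165 to 14032 against 7133 to 7612 (1 of 3 lower), and that of 2 endothelial miRNAs 45442 to 54854 against 63096 to 70810 (0 of 2). The 2 endothelial miRNAs differed in direction, each without overlap between groups, with log2 fold changes of 0.44 for miR-126a-3p and -0.91 for miR-126a-5p, so their sum follows the more abundant miR-126a-3p. In the other 5 lists the summed levels of the groups overlapped, and no marker with a row in the files was at 0 in all libraries. The neuronal sum is mostly miR-9a-5p, whose groups overlapped (log2 fold change -0.17, adjusted p = 0.423, limma). Most of the oligodendrocyte sum is miR-219a-2-3p, lower without overlap but not past the threshold (-0.55, adjusted p = 0.118, limma). The median log2 fold changes of the neuronal and oligodendrocyte lists were -0.78 and -1.27. The lists hold no marker particular to the ARC. In bulk tissue, fewer cells of a type and less RNA per cell cannot be told apart, and the part of cell composition in the results below was not tested.

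The 6 hairpins differed widely in level. In sham ARC the order of mean levels was miR-103-3p with 73902 ± 3417 normalized counts (SD, n = 3), miR-383-5p with 11550.0 ± 361, miR-107-3p with 6766 ± 270.0, miR-488-3p with 4659 ± 42.3, miR-384-5p with 3095 ± 108 and miR-384-3p with 1220.3 ± 114. The libraries of neighbours in this order did not overlap. Mature lengths were 21 to 23 bases where known, and levels are not scaled to length. miR-103-3p ranked 25 of 562 in both groups and supplied 72.3% to 76.4% of the members' reads in each library. The other 4 members, miR-488-5p, miR-33-3p, miR-383-3p and miR-33-5p, had means of at most 22.1 in sham, and neighbours among them overlapped. In CCI-ION ARC the order of the 6 abundant members was the same, but miR-107-3p and miR-488-3p, with means of 4589 and 4349.6, now overlapped.

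**Figure D1:**
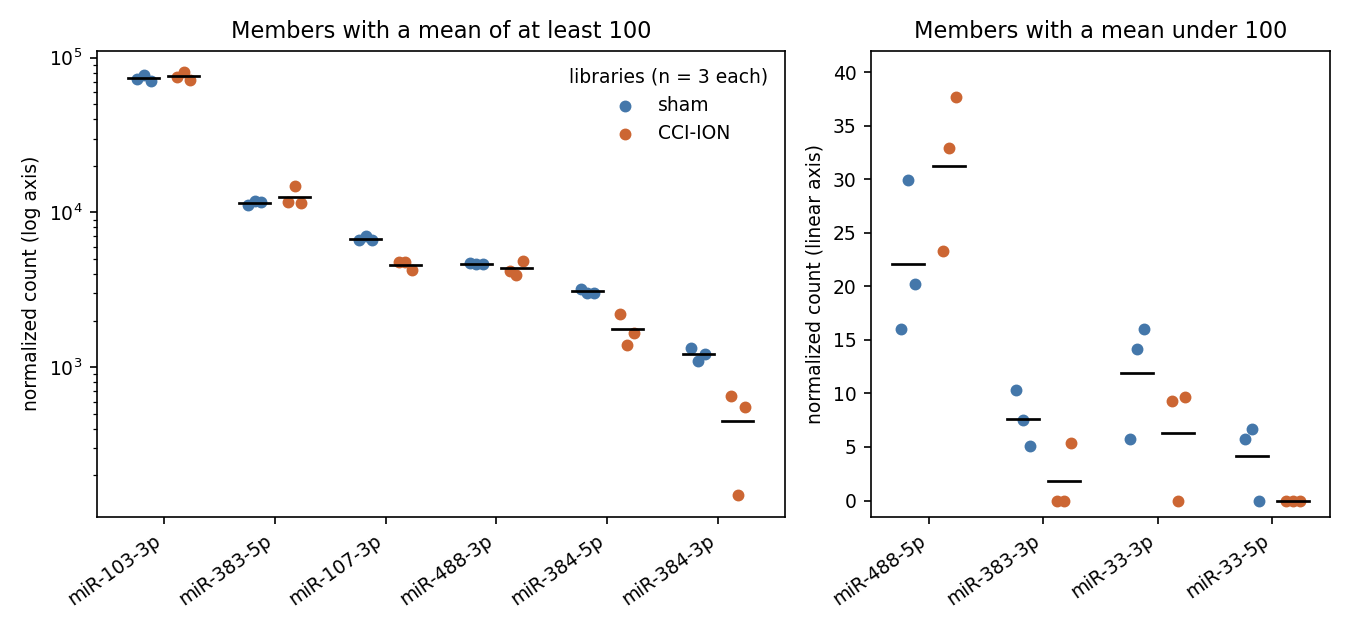
Normalized counts of the 10 members in each library (points, 3 sham and 3 CCI-ION) with group means (bars), on a log axis for members with a mean of at least 100 and on a linear axis for the rest. For miR-107-3p, miR-384-5p and miR-384-3p every CCI-ION library lies below every sham library.

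The members were compared between groups with limma on the log2 scale after adding 1, in a two-sided fit of all 555 miRNAs, and an adjusted p (Benjamini-Hochberg) under 0.05 was the threshold. One of the 10 members passed, miR-107-3p, which fell, against 6.85% of all miRNAs tested (3.42% higher and 3.42% lower). The groups did not overlap for 3 of the 10, all lower in CCI-ION, where 40.7% of all miRNAs tested were without overlap, 21.3% lower and 19.5% higher. The members had a median log2 fold change of -0.70, and the 7 above 0 in all libraries one of -0.10, against -0.01 over all miRNAs tested. The first median takes in miR-33-3p, miR-33-5p and miR-383-3p, which lie near the detection limit and were listed at 0 in some libraries. miR-33-5p was at 0 in every CCI-ION library, so it entered the comparison through its sham libraries alone. Of the members, 4 of the 10 had an unadjusted p under 0.05 (limma) against 33% of all. These include miR-383-3p, which came from at most 9 reads per library.

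miR-107-3p, the less abundant of the pair with the GCAGCAU seed, measured 6613, 7077 and 6607 normalized counts in the sham libraries. The CCI-ION libraries gave 4763, 4754 and 4250.1. The highest CCI-ION library was thus well below the lowest sham library, and both groups were tight. The ratio of the CCI-ION to the sham mean was 0.678, and limma put the log2 fold change at -0.56 ± 0.11 (SE; 95% interval -0.83 to -0.29, adjusted p = 0.045). The call lay close to the threshold. It was lost whichever library was left out (adjusted p from 0.0546 to 0.148, limma) and with total-count scaling (log2 fold change -0.36, adjusted p = 0.111, limma), while the direction stayed the same.

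miR-103-3p, which can come from both miR-103 hairpins, measured 73191, 77618 and 70896 normalized counts in the sham libraries. The CCI-ION libraries gave 74865, 80959 and 72220.0. The groups overlapped almost fully. The log2 fold change was 0.04 ± 0.11 (SE; adjusted p = 0.821 from limma), with a 95% interval of -0.23 to 0.31 that leaves room for a small change either way. Its sign depended on the scaling. Upper-quartile factors, which shifted the middle of all log2 fold changes tested to -0.34, gave -0.29, and total counts, which moved it to 0.17, gave 0.24. The sign also turned without CCI-ION replicate 2 (-0.0062).

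A ratio within a library does not depend on scaling. miR-107-3p stood at 9.03%, 9.12% and 9.32% of miR-103-3p in the sham libraries and at 6.36%, 5.87% and 5.88% in the CCI-ION libraries. The ratio was thus lower in every CCI-ION library than in any sham library, with little spread in either group. On the log2 scale the ratio was -3.45 ± 0.02 in sham and -4.05 ± 0.07 in CCI-ION (SD, n = 3 each), a difference of -0.60 (exact permutation test, two-sided p = 0.1, the smallest that 3 libraries against 3 can give, and 0.12 adjusted over 6 such measures). Without any single library the difference was -0.64 to -0.58. How the authors' counting assigned reads that fit both miRNAs is not given in the sources used here, so the single values, their ratio and their sum are uncertain. let-7a-1-3p and let-7c-2-3p, whose mature sequences are the same, are listed with the same reads in every library, so a read that fits 2 names may be counted for each. The sum came to 80668 ± 3670.0 normalized counts for sham libraries and 80604 ± 4700.0 for CCI-ION libraries (SD, n = 3 each), and its log2 values overlapped (exact permutation test, two-sided p = 0.9). This depends on the scaling, since the log2 difference of the sum was -0.0018 as deposited, -0.33 with upper quartiles (exact permutation p = 0.1, the smallest possible) and 0.20 with total counts (exact permutation p = 0.2). The share of miR-107-3p in the sum went from 8.39% ± 0.12 to 5.70% ± 0.25.

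**Figure D2:**
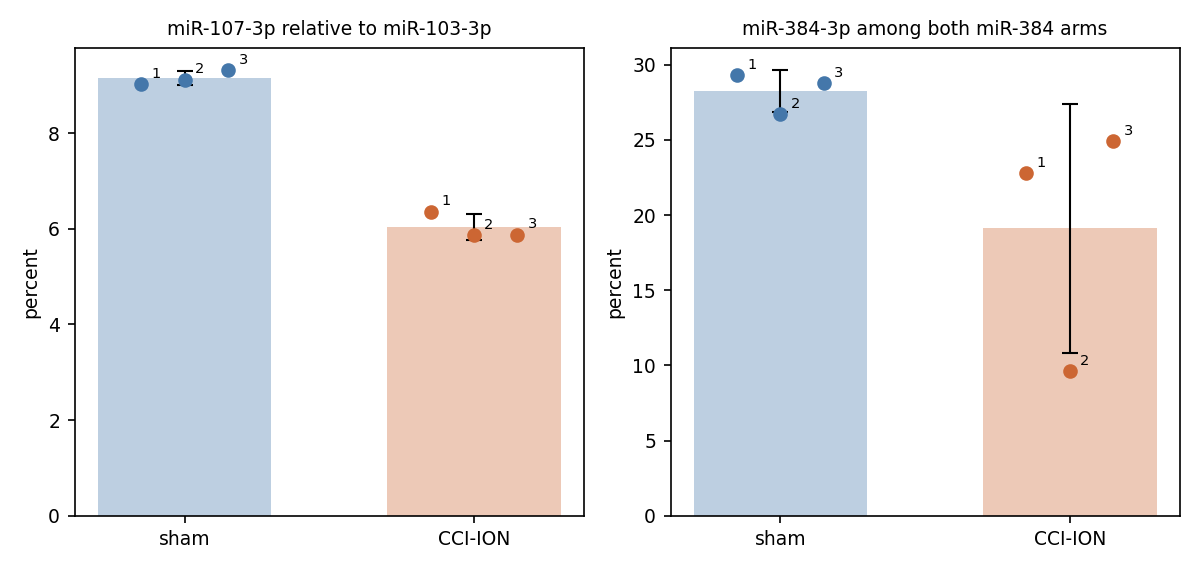
Left, miR-107-3p as a percent of miR-103-3p, and right, miR-384-3p as a percent of both miR-384 arms, in each library (points, numbered by replicate) with group means (bars) and SD (whiskers, n = 3). The left groups are tight and apart at 9.16% and 6.04%, and at the right CCI-ION replicate 2 stands alone at 9.62%.

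Both arms of miR-384 were lower in every CCI-ION library than in any sham library, but neither passed the threshold. miR-384-5p, the arm with the miR-30 seed, measured 3219, 3040.5 and 3025 normalized counts in the sham libraries. The CCI-ION libraries gave 2224, 1395 and 1669. The sham libraries lay close together and the CCI-ION libraries were spread out, with replicate 1 nearest to sham. The ratio of means was 0.569 and the log2 fold change -0.84 ± 0.19 (SE; 95% interval -1.32 to -0.36, unadjusted p = 0.00557, adjusted p = 0.0597 from limma). It passed in 6 of 16 alternatives, among them the stricter filters on low values and the fit without CCI-ION replicate 1 (log2 fold change -1.02, adjusted p = 0.0379, limma).

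miR-384-3p measured 1334, 1105 and 1222 normalized counts in the sham libraries. The CCI-ION libraries gave 656, 149 and 552, the second of these from 122 reads. CCI-ION replicate 2 was thus far under the other CCI-ION libraries, and it set most of the spread. The ratio of means was 0.371 and the log2 fold change -1.68 ± 0.58 (SE; 95% interval -3.13 to -0.24, adjusted p = 0.119 from limma). Leaving out CCI-ION replicate 2 gave a log2 fold change of -1.01, which passed (adjusted p = 0.0307, limma), with smaller error and a smaller change.

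The 3p arm made up 29.3%, 26.7% and 28.8% of both arms in the sham libraries and 22.8%, 9.62% and 24.9% in the CCI-ION libraries. Its share was below sham in each CCI-ION library. On the log2 scale, miR-384-5p exceeded miR-384-3p by 1.35 ± 0.10 in sham and 2.20 ± 0.90 in CCI-ION (SD, n = 3 each; exact permutation test, two-sided p = 0.1, the smallest possible, 0.12 adjusted over 6 measures). The difference of 0.85 shrank to 0.33 without CCI-ION replicate 2, so that library supplied most of it. With the arms summed, the log2 level was 12.07 ± 0.07 in sham and 11.07 ± 0.45 in CCI-ION, again without overlap.

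The 3 seed relatives of miR-384-5p that had a sequence had log2 fold changes above 0. miR-30a-5p stood at 25064 ± 556 normalized counts in sham libraries and at 47039.6 ± 16867 in CCI-ION (log2 fold change 0.85, adjusted p = 0.103, limma), miR-30e-5p 5536 ± 380.0 and 10882 ± 4302 (0.88, adjusted p = 0.147, limma) and miR-30c-5p 231478 ± 12744 and 250397 ± 32366 (0.11, adjusted p = 0.594, limma; SD, n = 3 each). None of the 3 passed, but miR-30e-5p, whose CCI-ION libraries gave 13234, 5917 and 13495, passed without CCI-ION replicate 2 (log2 fold change 1.27, adjusted p = 0.0115, limma). miR-384-5p was a small part of the copies with the GUAAACA seed in these 4 miRNAs, at 1.17% ± 0.10 in sham and 0.575% ± 0.17 in CCI-ION (SD, n = 3 each). miR-30b-5p and miR-30d-5p, relatives by name, had no RefSeq sequence and were not counted. Counting them would make both shares smaller. miR-30d-5p rose without overlap and passed, from 128595 ± 1781 to 299410 ± 25445 normalized counts (log2 fold change 1.22, adjusted p = 0.00775, limma). For miR-30b-5p the groups overlapped, at 2680 ± 297 and 3378.5 ± 810 (0.31, adjusted p = 0.309, limma; SD, n = 3 each).

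**Figure D3:**
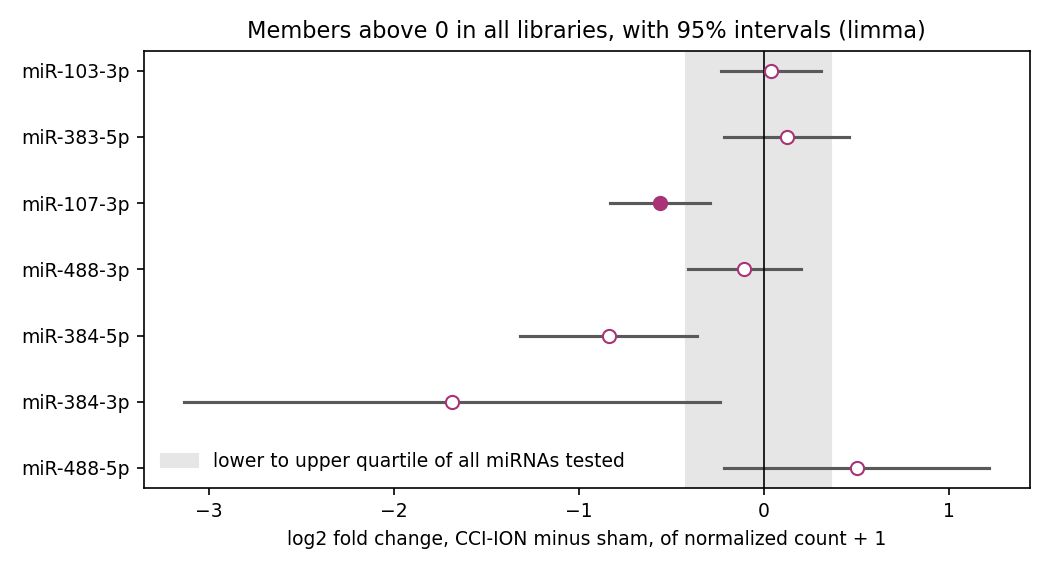
Log2 fold change (CCI-ION minus sham, normalized count + 1) of the 7 members above 0 in all libraries, with 95% intervals from limma. The filled point, miR-107-3p at -0.56, passed the threshold, open points did not, and the grey band spans the lower to the upper quartile of all 555 miRNAs tested.

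For the other hairpins reported to target Pomc, the groups overlapped. miR-383-5p, the second most abundant member, measured 11162, 11877 and 11611 normalized counts in the sham libraries. The CCI-ION libraries gave 11677, 14724 and 11580.0. Replicates 1 and 3 of CCI-ION lay within the sham range, and replicate 2 above it. The log2 fold change was 0.12 ± 0.14 (SE; 95% interval -0.22 to 0.46, adjusted p = 0.551 from limma), and its sign turned with upper-quartile scaling (-0.21). Its log2 distance to miR-384-5p, a ratio free of scaling, moved by -0.96, from -1.90 ± 0.09 to -2.86 ± 0.51 (SD, n = 3 each; exact permutation test, two-sided p = 0.1, the smallest possible, 0.12 adjusted over 6 measures). Of the 2 hairpins, miR-384 was thus lower relative to miR-383 in each CCI-ION library than in any sham library. Without any single library the difference was -1.2 to -0.694, smallest without CCI-ION replicate 2. This ratio was added after miR-384-5p was seen to be lower without overlap, so it is no separate test.

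miR-488-3p measured 4708, 4636 and 4632 normalized counts in the sham libraries, the narrowest spread of the 6 abundant members. The CCI-ION libraries gave 4214, 3946 and 4888. CCI-ION libraries lay on both sides of the sham values. The log2 fold change was -0.10 ± 0.12 (SE; 95% interval -0.41 to 0.20, adjusted p = 0.564 from limma), and its sign turned with total-count scaling (0.097). The partner arm miR-488-5p measured 16.0, 29.9 and 20.2 normalized counts in the sham libraries and 23.3, 32.9 and 37.7 in CCI-ION. Its groups overlapped, with a log2 fold change of 0.50 ± 0.29 (SE; adjusted p = 0.262 from limma) that rests on 14 to 36 reads per library. It was less than 1% of both arms in every library.

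The remaining members were at the edge of detection, so depth limits what they can show. miR-33-3p came from 5, 17 and 19 reads in the sham libraries, and from 10, 0 and 9 in CCI-ION. miR-33-5p, the arm known for its role in cholesterol export, came from 5, 8 and 0 reads in sham and was listed at 0 in all CCI-ION libraries. miR-383-3p came from 9, 9 and 6 reads in sham and from 0, 0 and 5 in CCI-ION. The groups overlapped or met at 0 in each of these, none passed the threshold (adjusted p from 0.134 to 0.395, limma), and no fold is given.

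**Figure D4:**
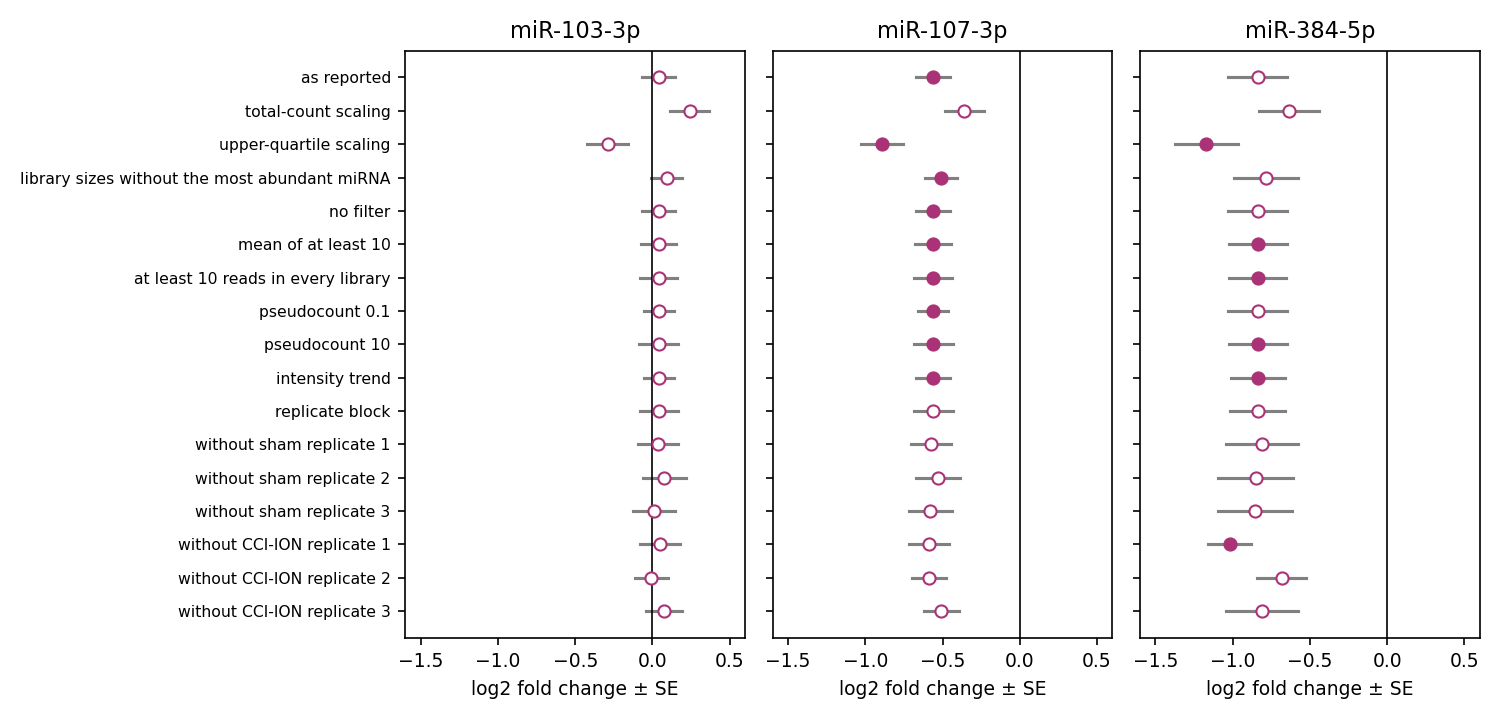
Log2 fold change with standard error of miR-103-3p, miR-107-3p and miR-384-5p as reported and under 16 alternatives (rows), filled where the adjusted p was under 0.05. miR-107-3p and miR-384-5p stay below 0 in all 16, with their calls changing, and miR-103-3p lies on both sides of 0.

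Other miRNAs studied in hypothalamic control of feeding and weight were set beside the members as a list of 14, of which 7 also mark cell types above and 1 is a seed relative of miR-384-5p. In this list 1 passed as higher, 1 as lower and 12 did not pass, against 6.85% of all miRNAs tested that passed (3.42% higher and 3.42% lower). The groups did not overlap for 6 of the 14, 2 higher and 4 lower, where 40.7% of all were without overlap. Log2 fold changes were above 0 for 7 and below 0 for 7, with a median of 0.26 against -0.01 over all miRNAs tested. That median is the midpoint between let-7a-5p (-0.05) and miR-141-3p (0.57), with no listed miRNA between them, so it describes no typical member of the list. miR-218a-5p fell from 123862 ± 5166 to 65077 ± 6057 normalized counts (log2 fold change -0.93, adjusted p = 0.019, limma; SD, n = 3 each). miR-145-5p, also a marker of vascular smooth muscle, rose from 2724 ± 512 to 4847 ± 235 (log2 fold change 0.85, adjusted p = 0.045, limma; SD, n = 3 each). miR-7a-5p, the most abundant miRNA in sham ARC and one enriched in hypothalamic neurons, had log2 fold change -1.04 (adjusted p = 0.0828, limma) and its relative miR-7b -0.87 (adjusted p = 0.071, limma), both without overlap between groups. When a library was left out, miR-218a-5p still passed without CCI-ION replicate 1 or 2 and not without any other (adjusted p up to 0.0841, limma), and miR-145-5p did not pass whichever was missing (0.0682 to 0.148, limma). The miR-200 family members miR-200a-3p, miR-200b-3p, miR-200c-3p, miR-141-3p and miR-429 had log2 fold changes of 0.57 to 0.94 with overlapping groups (adjusted p from 0.141 to 0.551, limma). For miR-342-3p, lower without overlap, the log2 fold change was -0.41 (adjusted p = 0.143, limma). miR-132-3p, miR-9a-5p and let-7a-5p had log2 fold changes of -0.17 to -0.05 and overlapping groups.

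Patterns over the 6 libraries were compared with those of the 358 other miRNAs with a mean of at least 100, by Pearson's r of log2 values, as a description in which the group difference itself has a share. Nearest to miR-107-3p were miR-221-3p (r = 0.991) and miR-151-5p (0.988), both of which also fell, with log2 fold changes of -0.81 and -0.68 (adjusted p = 0.0208 and 0.0334, limma), and miR-874-3p (0.978). Both of these calls remained without CCI-ION replicate 2 and were lost without any other library (adjusted p from 0.0522 to 0.145, limma). Nearest to miR-384-5p were miR-376b-5p (0.990), miR-185-5p (0.984) and miR-9a-3p (0.978), and to miR-384-3p miR-135a-5p (0.984), miR-16-5p (0.976) and miR-190b-5p (0.962). miR-383-5p was most like miR-30c-5p (0.976), miR-106b-3p (0.966) and miR-370-5p (0.965). For miR-103-3p the nearest were miR-370-5p (0.929), miR-298-3p (0.833) and miR-365-3p (0.823), and for miR-488-3p they were miR-6319 (0.923), miR-20a-5p (0.868) and miR-340-3p (0.850).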

How the data were processed

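Small RNA libraries of rat ARC (3 sham, 3 CCI-ION) were analysed from the deposited signal values, 1 per mature miRNA and library. The submitters' processing notes name cutadapt 1.14, Bowtie 1.1.1 and build rn6. The miRNA annotation, counting and normalization are not given in the sources used here. Every deposited value was a whole multiple (within 0.001) of a step that matched the inverse of a median-of-ratios size factor over 485 miRNAs, with the smallest worth 5 reads, so the signal is taken as reads over a size factor (0.821 to 1.20). Sequences and gene spans came from RefSeq (GRCr8), with sequences for 512 of 562 names.

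log2(value + 1) was tested with limma 3.58.1 in R 4.3.3 for miRNAs whose mean reached 1, two-sided, without covariates, Benjamini-Hochberg adjusted. Single values used exact permutation tests (scipy 1.17.1), and all ratios within libraries and the sum of the miR-384 arms were added after the values were seen. Alternatives covered scaling, filters, pseudocounts of 0.1 and 10, an intensity trend, the replicate block and leaving out each library. Planned count models were not run, because the deposited values are a normalized signal. The reads worked out from its steps served only for depth, the detection limit, shares and 1 filter.

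The members, the lists and the tests were chosen with earlier results of these data known. Named miRNAs are the members, their seed partners (bases 2 to 8), miRNA genes within 10 kb, the energy-balance list and, for members whose mean reached 100, the 3 miRNAs of most similar pattern. miR-30b-5p and miR-30d-5p were added by name. Other miRNAs were not described, apart from cell type markers and the let-7 pair with the same sequence.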

Additional observations from a re-analysis of the deposited data

How the results depend on the processing

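With total counts the middle of all log2 fold changes shifted to 0.17 and with upper quartiles to -0.34 (-0.01 as reported). Higher calls were 50% of 38 as reported, 82.4% of 51 and 7.69% of 117. Scaling reversed miR-103-3p (-0.29) and miR-383-5p (-0.21, both upper quartiles), miR-488-3p (0.097, total counts), and the sum of miR-103-3p and miR-107-3p (from -0.0018 to 0.20 with total counts and 0.051 without the most abundant miRNA), and moved that sum to -0.33 with upper quartiles. None of the 3 single miRNAs passed limma's threshold there, and the permutation test of the sum cannot go below p = 0.1. Total counts left miR-107-3p at -0.36 and 0 members past the threshold. miR-384-5p newly passed with upper quartiles (-1.17), a filter at a mean of 10, one at 10 reads per library and an intensity trend (-0.84 each) and a pseudocount of 10 (-0.83), which gave 2 members each. These 5 settings gave 117, 63, 96, 88 and 62 calls among all miRNAs, and all but the filter at a mean of 10 gave 4 in the energy-balance list. The filter at 10 reads and the intensity trend gave 1 seed partner, miR-30a-5p, and the fit without CCI-ION replicate 2 gave miR-30e-5p.

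With the replicate block, 3 miRNAs passed in all, with 0 members and 0 of the energy-balance list, and miR-107-3p kept its -0.56 (adjusted p = 0.136, limma). Deviations from the group means correlated weakly between equally numbered libraries (r = -0.031, 0.19 and -0.012). Between the other pairings r was -0.13 to 0.13. With 3 libraries per group this check cannot decide whether libraries were paired. The labels tie equally numbered libraries to no shared animal, so they are not treated as pairs.

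With a library left out, calls ranged from 7 to 42, members from 0 to 1, seed partners from 0 to 1, and the energy-balance list from 0 to 2. Log2 fold changes ranged from -0.59 to -0.51 for miR-107-3p, from -1.02 to -0.68 for miR-384-5p, from -0.0062 to 0.076 for miR-103-3p, from 0.010 to 0.18 for miR-383-5p, and from -0.047 to 0.035 for the sum. Counts of 1 member came from miR-384-5p without CCI-ION replicate 1, miR-384-3p without replicate 2, miR-383-3p without replicate 3 and miR-33-5p without sham replicate 3. For the last 2, the libraries left in 1 group are all listed at 0, so their spread is set by the detection limit and the calls carry no weight. The cause of these changes was not tested, beyond fewer libraries or fewer miRNAs tested. The 2 edgeR and DESeq2 alternatives were not run. Depth limits miR-33 and miR-383-3p, which lie near 5 reads.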
